A study of Mus musculus with 11 samples.

Results

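A set of 8 genes that mark resident macrophages of the mouse testis were examined in RNA from whole testes: Csf1r, Cx3cr1, Adgre1, Mrc1, Cd68, C1qa, C1qb and C1qc. They were chosen by name, as known macrophage genes, and all 8 of 8 were found among the 33188 genes of the deposited counts, which also cover 1088 subfamilies of transposable elements. The testes came from C57Bl6/J males at postnatal day 5, with birth counted as day 1, and gave 11 poly-A RNA libraries. There were 2 libraries from wild-type animals (WT), 3 from animals homozygous for a constitutive Dnmt3C knockout (Dnmt3C KO), 3 from the Nrf1 conditional knockout (Nrf1 cKO) and 3 from animals with both (dKO). Dnmt3C is the DNA methyltransferase that silences promoters of young retrotransposons in male germ cells, and NRF1 is a transcription factor sensitive to DNA methylation. In Nrf1 cKO and dKO animals 1 Nrf1 allele is a knockout in every cell and the other is floxed and recombined by a Ddx4-Cre transgene, which is active in germ cells. Testicular macrophages of these animals therefore keep 1 allele, the floxed one, whereas the Dnmt3C deletion is present in all cells. The sample titles name germ cells only, other labels describe spermatogonia together with somatic cells, no label reports a sort, and the study's methods describe whole testes, which is how the material is treated here. In bulk RNA of this kind, fewer macrophages and less RNA per macrophage cannot be told apart.

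Macrophages settle in the fetal testis and lie in the interstitium beside Leydig cells and vessels, and later also around the seminiferous tubules. CSF1R, the receptor for the cytokines CSF1 and IL-34, is needed for their survival. They clear dying cells, support Leydig cells and are described as a CSF1R-high, CD206-positive interstitial population and an MHC class II-positive peritubular one that expands after birth. C1QA, C1QB and C1QC are the 3 chains of C1q, the recognition unit of the classical complement pathway, which tissue macrophages make themselves.

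The libraries held 26063590 to 39365841 counts, and the 8 genes together took 2806 to 7067 of them. Single counts of a member lay between 150 and 1438, so that counting error alone was 2.64% to 8.16% of a value, whereas the coefficient of variation within a genotype ranged from 4.45% to 46.8%. Values below are counts-per-million (CPM) of each library's total multiplied by its TMM scaling factor, which corrects for differences in composition. Nrf1 itself was at 57.0 and 58.0 CPM in WT, 44.96 to 55.6 in Dnmt3C KO, 52.2 to 57.9 in the conditional knockout and 56.8 to 60.8 in dKO, and Dnmt3c was at 4.16 and 4.87 CPM in WT, 3.02 to 4.51 in Dnmt3C KO, 3.86 to 4.87 in the conditional knockout and 3.55 to 4.94 in dKO. The Dnmt3c levels of Dnmt3C KO and dKO, and the Nrf1 levels of Nrf1 cKO and dKO, thus overlapped those of WT. The counts are summed over each whole gene, do not show which exons are deleted and do not check the labels. Replicate 2 of dKO was the lowest library for all 8 macrophage genes, and replicate 2 of WT stood apart in genes of other blood cells. The main comparisons that rest on these libraries are given with and without them.

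C1qa, C1qb and C1qc lie side by side on the minus strand of chromosome 4 (GRCm38, chr4:136880129-136898803), within 18675 bases. C1qb (ENSMUSG00000036905.8) spans chr4:136880129-136886187, C1qc (ENSMUSG00000036896.5) spans chr4:136889804-136893065 and C1qa (ENSMUSG00000036887.5) spans chr4:136895917-136898803. Because these genes had closely similar profiles over the libraries, the promoters of the neighbours C1qb and C1qc are shown, with that of Mrc1, the mannose receptor CD206, for comparison. Each sequence is the 250 bases before the start of the gene in RefSeq (GRCm38.p6), 5′ to 3′ on the gene's own strand. Capitals mark 2 motifs: the PU.1 box GAGGAA, read as TTCCTC on the other strand, and the ETS core GGAAGT, read as ACTTCC. PU.1, the product of Spi1, is the ETS factor that directs the myeloid lineage.
C1qb: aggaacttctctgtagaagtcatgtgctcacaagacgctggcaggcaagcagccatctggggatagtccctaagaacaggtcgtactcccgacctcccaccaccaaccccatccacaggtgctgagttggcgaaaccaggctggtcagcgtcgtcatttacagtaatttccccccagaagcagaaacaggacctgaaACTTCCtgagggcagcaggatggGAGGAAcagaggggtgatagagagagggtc
C1qc: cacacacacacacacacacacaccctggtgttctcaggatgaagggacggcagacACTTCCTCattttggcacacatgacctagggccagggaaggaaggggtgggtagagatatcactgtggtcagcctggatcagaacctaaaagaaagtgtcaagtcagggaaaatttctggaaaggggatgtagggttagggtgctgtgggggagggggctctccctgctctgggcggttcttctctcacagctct
Mrc1: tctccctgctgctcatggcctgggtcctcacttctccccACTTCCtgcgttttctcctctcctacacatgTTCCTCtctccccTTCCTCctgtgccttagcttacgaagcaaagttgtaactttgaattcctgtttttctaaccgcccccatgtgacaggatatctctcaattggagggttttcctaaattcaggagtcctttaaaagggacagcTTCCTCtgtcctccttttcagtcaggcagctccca
The C1qb window is chr4:136886201-136886450, that of C1qc is chr4:136892915-136893164, and that of Mrc1 is chr2:14229164-14229413 on the plus strand. Windows were found for 5 of the 8 genes (C1qb, C1qc, Cd68, Cx3cr1 and Mrc1) and not for C1qa, Adgre1 or Csf1r. GAGGAA was present on either strand in 4 of these 5, all but Cx3cr1, and in 23.3% of 32851 promoter windows of the same length. GGAAGT was present in 3 of 5 (C1qb, C1qc and Mrc1) and in 19.7% of all windows. Positions are counted from the RefSeq start of each gene, which for C1qc, Cx3cr1 and Mrc1 lies inside the GENCODE gene model, so that part of the C1qc and Mrc1 windows and all of the Cx3cr1 window lie within those models. In C1qb the motifs end 25 and 48 bases before the start, in C1qc they overlap 188 to 195 bases before it, and Mrc1 holds 3 copies of GAGGAA. The letters TGCGCA, the core of the NRF1 motif, were in none of the 5 windows and in 6.43% of all windows.

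The first question was how strongly the macrophage genes were expressed at this age. Per kilobase of exon, the C1q genes were highest, C1qa at 21.7 ± 5.20, C1qb at 19.8 ± 5.28 and C1qc at 12.1 ± 3.48 CPM per kb (mean ± SD, n = 11). Cd68, a lysosomal glycoprotein of phagocytes, followed at 9.06 ± 1.93 CPM per kb. Csf1r at 5.08 ± 1.42 and Mrc1 at 5.04 ± 1.47 CPM per kb could not be ordered, with Csf1r above Mrc1 in 6 of 11 libraries. Cx3cr1, the receptor for the chemokine CX3CL1, was at 3.29 ± 0.885 CPM per kb, and Adgre1, which encodes the F4/80 antigen, at 2.93 ± 0.760, with Cx3cr1 above Adgre1 in 7 of 11 libraries. C1qb was above C1qc, Cd68 above Csf1r and Mrc1 above Cx3cr1 in all 11 libraries, C1qc above Cd68 in 10 and C1qa above C1qb in 9. The ranges over libraries overlapped for every pair of neighbours in this order. No member was at 0 in any library.

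The receptor Csf1r (ENSMUSG00000024621.16, chr18:61100598-61132149, plus strand) was at 26.7 and 21.8 CPM in WT and at 37.4, 23.0 and 34.8 in Dnmt3C KO. Nrf1 cKO libraries had 26.4, 33.0 and 42.9 CPM, and dKO libraries 24.9, 15.3 and 36.7. The highest level was in Nrf1 cKO 3 and the lowest in dKO 2, and all 4 genotypes overlapped. Cx3cr1 (ENSMUSG00000052336.7, chr9:119901616-120069879, minus strand) was at 12.7 and 10.0 CPM in WT, 17.2, 10.4 and 21.8 in Dnmt3C KO, 14.3, 17.7 and 15.6 in the Nrf1 cKO testes, and 14.7, 9.30 and 19.0 in dKO. All 3 Nrf1 cKO libraries were above both WT libraries, and the other genotypes overlapped WT. The annotated span of Cx3cr1 overlaps exons or introns of Csrnp1, Gorasp1 and Xirp1 on the same strand, so a part of its counts may be shared with them.

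Among the surface proteins, Adgre1 (ENSMUSG00000004730.15, chr17:57358691-57483527, plus strand) was at 8.23 and 9.98 CPM in WT, 12.7, 7.68 and 10.96 in Dnmt3C KO, 8.56, 10.2 and 12.1 in the Nrf1 cKO testes, and 7.40, 4.63 and 12.1 in dKO. Its dKO libraries spread most, with a coefficient of variation of 46.8%, and no genotype was apart. Mrc1 (ENSMUSG00000026712.3, chr2:14229392-14332057, plus strand) was at 30.1 and 23.1 CPM in WT, 39.0, 25.3 and 45.7 in Dnmt3C KO, 23.1, 28.9 and 43.5 in the Nrf1 cKO testes, and 32.5, 18.9 and 42.9 in dKO. In each mutant genotype the highest library was above both WT libraries, another was below the WT mean of 26.6 CPM, and all overlapped WT. The lysosomal Cd68 (ENSMUSG00000018774.13, chr11:69664213-69666153, minus strand) was at 9.31 and 9.92 CPM in WT, 12.4, 13.9 and 15.3 in Dnmt3C KO, 11.1, 13.3 and 10.7 in the Nrf1 cKO testes, and 9.11, 7.23 and 13.02 in dKO. All Dnmt3C KO and all Nrf1 cKO libraries lay above both WT libraries, and dKO lay on both sides of them.

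The complement gene C1qa was at 17.1 and 22.2 CPM in WT, 28.4, 23.1 and 29.7 in Dnmt3C KO, 19.06, 25.6 and 26.1 in the Nrf1 cKO testes, and 20.1, 11.3 and 25.7 in dKO. C1qb was at 14.9 and 25.6 CPM in WT, 27.4, 22.5 and 26.6 in Dnmt3C KO, 16.6, 27.7 and 24.1 in the Nrf1 cKO testes, and 18.6, 10.2 and 23.4 in dKO. C1qc was at 16.5 and 22.6 CPM in WT, 28.5, 23.7 and 32.5 in Dnmt3C KO, 18.9, 28.4 and 30.1 in the Nrf1 cKO testes, and 20.3, 9.83 and 26.5 in dKO. In Dnmt3C KO all libraries exceeded both WT libraries for C1qa and C1qc but not for C1qb, for which WT 2 was at the level of Dnmt3C KO.

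**Figure D1:**
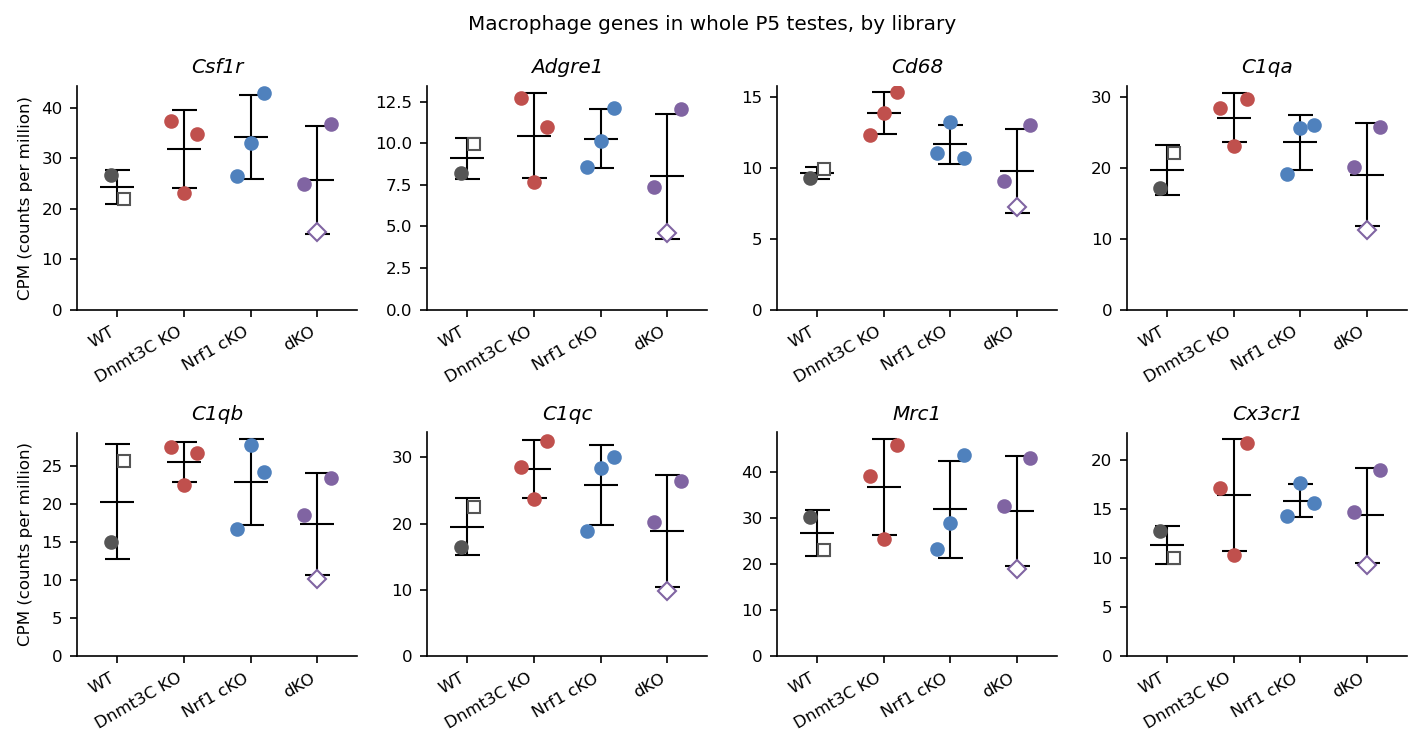
Level of the 8 macrophage genes in each of the 11 libraries, in counts-per-million (one panel a gene, one point a library, bars the mean and SD of each genotype, the open square WT 2 and the open diamond dKO 2). The open diamond of dKO 2 is the lowest point of all 8 panels, and for Cd68, C1qa and C1qc the Dnmt3C KO points lie above both WT points.

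A single dKO library was the lowest of the 11 for all 8 genes. The 8 genes summed to 86.7 CPM in dKO 2, against 147.7 and 199.3 CPM in the other dKO libraries, 135.7 and 145.1 in WT, 149.6, 203.0 and 217.4 for Dnmt3C KO, and 138.0, 184.7 and 205.1 for Nrf1 cKO. The next-lowest library exceeded dKO 2 by a factor of 1.08 for Cx3cr1 to 1.68 for C1qc, and the mean of the other dKO libraries exceeded it by 1.53 for Cd68 to 2.38 for C1qc. Over all genes tested in the 11 libraries, dKO 2 was the lowest library for 10.9%. The highest library was Dnmt3C KO 3 for 5 of the 8 genes, and Dnmt3C KO 1, Nrf1 cKO 2 and Nrf1 cKO 3 for 1 each. Other lists moved with dKO 2: 12 pan leukocyte genes summed to 56.7 CPM there and to 81.7 to 126 CPM in the other 10 libraries, and 12 endothelial markers to 262 CPM there and 275 to 492 CPM elsewhere. The complement, MHC class II, B cell, Leydig cell and red blood cell lists were also lowest there, the complement genes at 507.5 CPM against at least 562.8 and the B cell genes at 2.69 CPM against at least 3.52. The sum of the other macrophage genes, at 1110 CPM, lay within the 967.7 to 1321 CPM of the other libraries, a sum made up largely by Axl and Gas6. The mean log2 CPM of that list was lowest in dKO 2, at 1.56 against 1.62 to 2.65 in the other libraries, and 9 of 24 of its genes were lowest there. The value of 1.62 was that of Nrf1 cKO 1, in which 8 of the 24 were lowest, although no member was lowest in that library. The pan leukocyte genes had mean levels of 1.19 to 23.7 CPM, and none was at 0 in any library. The part of these in the low macrophage values of dKO 2 was not tested.

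The comparison of Dnmt3C KO with WT asked what the loss of Dnmt3C alone does. All 8 genes had higher fitted values in Dnmt3C KO, by a median log2 fold change of 0.46, against 0.01 over all 21664 features tested, of which 50.8% were above 0. None of the 8 passed the threshold of an adjusted p under 0.01 in edgeR's quasi-likelihood test (percent called over all features 0), and none passed with DESeq2. At an unadjusted p under 0.05 there were 3 of 8 with either tool, all higher, where 5.41% of all features reached it and 2.56% did so upward. C1qc was higher by 0.53 (SE 0.19, 95% interval 0.11 to 0.95, edgeR adjusted p = 0.893), Cd68 by 0.53 (SE 0.19, 0.10 to 0.95) and C1qa by 0.46 (SE 0.18, 0.07 to 0.86). These 3 are also the ones whose groups did not overlap, which held for 9.78% of features in this direction. The intervals of the other 5 included 0, with C1qb at 0.33 (-0.15 to 0.81), Csf1r at 0.39 (-0.07 to 0.84) and Cx3cr1 at 0.53 (-0.09 to 1.14). Mrc1 was at 0.46 (-0.04 to 0.96) and Adgre1, the smallest, at 0.20 (-0.34 to 0.74). The count at an unadjusted p under 0.05 was 0 without Dnmt3C KO 3 (4.43% of all features in that fit), 1 without WT 1 (8.90%), 2 without Dnmt3C KO 1 (3.94%), 4 without WT 2 (11.2%) and 6 without Dnmt3C KO 2 (4.80%). It was 1 in the joint fit of all 11 libraries (3.76%) and 6 with no filter on low counts (5.53%).

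Nrf1 cKO was compared with WT, that is, with both Nrf1 alleles lost in germ cells and 1 of them, the constitutive knockout, in macrophages. The 8 genes were again all above WT in the fit, by a median of 0.27 on the log2 scale against 0.00 over all 21296 features, of which 50.3% were above 0. Other lists leaned the same way: 14 of 15 Sertoli cell markers (median 0.48) and 11 of 12 endothelial markers (0.50) were above WT. So were 13 of 14 phagocyte lysosome genes (0.20), whereas 12 of 23 other macrophage genes and 19 of 20 germ cell markers were below. None of the 8 passed the threshold in edgeR (percent called 0, smallest adjusted p of the 8 0.901) or in DESeq2. At an unadjusted p under 0.05 there was none in edgeR, where 5.75% of features reached it, 1 in DESeq2 (5.87%) and 1 in edgeR with no filter on low counts (5.85%). Without Nrf1 cKO 1 the median was 0.41 with 2 of 8 under 0.05 (7.31% of features), and without WT 1 it was 0.23 with 1 (7.13%). The largest differences were those of both receptors, Csf1r at 0.48 (SE 0.23, 95% interval -0.03 to 0.99) and Cx3cr1 at 0.47 (SE 0.23, -0.03 to 0.97). Cd68 and Cx3cr1 did not overlap WT, as was the case for 9.68% of features in that direction. The C1q genes were between 0.17 for C1qb and 0.40 for C1qc, with intervals that included 0. Without WT 1 C1qb was at -0.15, and without Nrf1 cKO 3 Mrc1 was at -0.04. These comparisons use the same WT libraries, so their directions are not independent.

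In dKO, the macrophage genes were spread around the WT level. The median log2 difference from WT was -0.01, with 4 genes above 0 and 4 below, from -0.22 for C1qb to 0.33 for Cx3cr1, beside 51.1% of all features above 0 and 48.9% below. None passed the threshold in edgeR (percent called 0) or DESeq2, and none had an unadjusted p under 0.05, which 1.74% of features reached. Without dKO 2, all 8 were above WT, with a median of 0.24, and Cx3cr1 at 0.57 and Mrc1 at 0.50 had unadjusted p-values of 0.0323 and 0.0336 in edgeR (adjusted p = 1.00 for both), where 2.06% of features were under 0.05. Without dKO 3, 7 of 8 were below WT with a median of -0.30, and without WT 2 there were 6 of 8 above WT with a median of 0.11.

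Against Nrf1 cKO, all 8 genes were lower in dKO by a median of -0.33 (from -0.45 for C1qc to -0.02 for Mrc1), where 51.7% of all 20381 features were lower. Also lower were 11 of 12 endothelial markers (median -0.76), 15 of 15 Sertoli cell markers (-0.18) and 11 of 12 pan leukocyte genes (-0.28). By contrast, 19 of 20 germ cell markers were higher. None of the 8 was called in edgeR (percent called 0) or DESeq2, and none of them had an unadjusted p under 0.05 (2.81% of features). Without dKO 2 the median was -0.06, with 6 of 8 lower, and without dKO 3 it was -0.62, with 3 of 8 under 0.05 (3.39% of features). Against Dnmt3C KO, all 8 were again lower in dKO, by a median of -0.44 against 0.02 over all 20783 features, of which 47.4% were lower. The 3 C1q genes were lower by the largest amounts, C1qc at -0.58 (95% interval -1.24 to 0.07), C1qb at -0.55 (-1.12 to 0.01) and C1qa at -0.51 (-1.08 to 0.05). None of the 8 was called (edgeR, percent called 0, smallest adjusted p of the 8 0.675) and none with DESeq2. At an unadjusted p under 0.05 there was 1 in edgeR, Cd68 at -0.51 (-0.99 to -0.02), where 7.18% of features reached it and 4.08% did so downward, and there were 4 in DESeq2 (7.25%) and 4 in edgeR with no filter on low counts (6.09%). Without dKO 2 the median was -0.19 and Cd68 was at -0.34 (unadjusted p = 0.112 in edgeR). The count was 0 without dKO 2 (5.13% of features), dKO 1 (12.5%), Dnmt3C KO 2 (7.14%) or Dnmt3C KO 3 (4.04%) and 1 without Dnmt3C KO 1 (4.19%), whereas without dKO 3 the median was -0.77 with 6 genes under 0.05 (5.74% of features). Dnmt3C KO and Nrf1 cKO differed by a median of 0.15, with 7 of 8 genes higher in Dnmt3C KO beside 48% of all features, none called in edgeR (percent called 0) or DESeq2, and none with an unadjusted p under 0.05 (10.6% of features). Without Nrf1 cKO 1 this median was -0.02, with 3 of 8 higher, and without Dnmt3C KO 3 it was 0.02, with 5 of 8 higher.

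**Figure D2:**
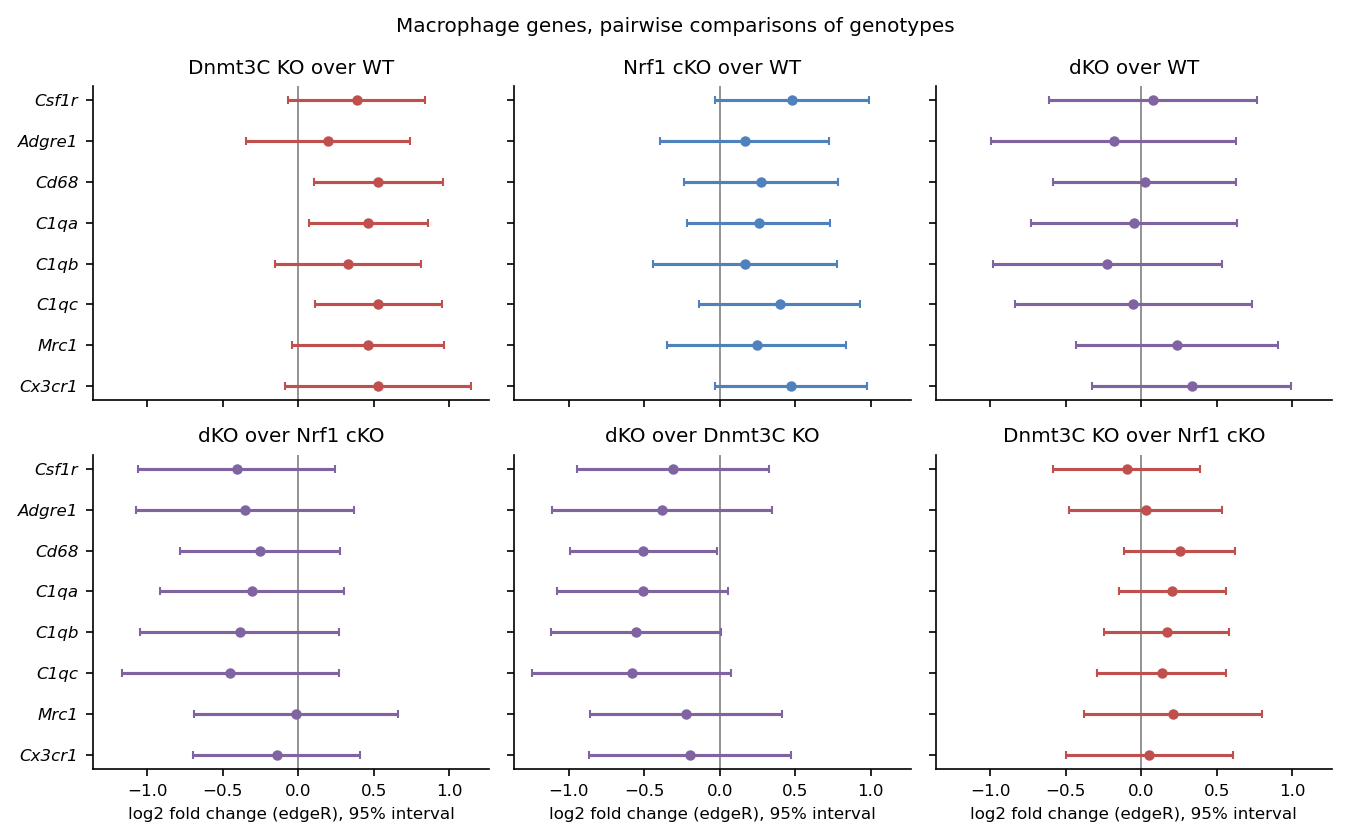
Log2 fold change of each macrophage gene in the 6 pairs of genotypes (one panel a pair, points the edgeR estimate, bars the 95% interval, the vertical line no difference). All 8 points lie above 0 for Dnmt3C KO over WT and for Nrf1 cKO over WT and below 0 for dKO over either single mutant, and most intervals include 0.

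The 11 libraries were then fitted together. Averaged over both Dnmt3C backgrounds, the 6 libraries with deleted Nrf1 differed from the 5 with intact Nrf1 by a median of -0.10 over the 8 genes (from -0.19 for C1qb to 0.14 for Cx3cr1), and none was called in edgeR (percent called 0.00443) or in DESeq2 or had an unadjusted p under 0.05 (8.53% of features). Averaged over both Nrf1 backgrounds, Dnmt3C KO differed from intact Dnmt3C by a median of 0.06 (from -0.08 for Adgre1 to 0.22 for Mrc1), with none called (edgeR, percent called 0, likewise DESeq2) and none under 0.05 (2.92% of features). Without dKO 2 these medians were 0.04 and 0.20, without dKO 3 they were -0.25 and -0.09, and without WT 2 they were -0.00 and 0.15. The 95% intervals of single genes extended 0.34 to 0.49 to either side of these estimates.

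The interaction asks whether the difference made by Dnmt3C KO is the same with Nrf1 deleted as with Nrf1 intact. It was below 0 for all 8 genes, with a median of -0.75 against -0.01 over all 22594 features, of which 50.8% were below 0. The 8 genes varied together over the libraries, with a median Pearson r of 0.82 between pairs of genes. Their shared direction, here and in the pairs of genotypes, is therefore not 8 independent observations. The values ran from -0.48 for Mrc1 (SE 0.45) to -0.98 for C1qc (SE 0.44, 95% interval -1.94 to -0.03), with Cd68 at -0.78 (SE 0.31, -1.46 to -0.11), Csf1r at -0.80 and C1qa at -0.77. None passed the threshold in edgeR (percent called 0, smallest adjusted p of the 8 0.895) or DESeq2. At an unadjusted p under 0.05 there were 2 in edgeR, Cd68 and C1qc (5.55% of all features, 1.87% downward), and 3 in DESeq2 (5.802%). Without dKO 2 all 8 were still below 0, with a median of -0.50, and Cd68 at -0.63 and C1qc at -0.69 had unadjusted p-values of 0.0460 and 0.0480 in edgeR (4.91% of features under 0.05). Without dKO 3 the median was -1.02 with 7 genes under 0.05 (4.95% of features). The count was 0 without WT 1, Dnmt3C KO 3 or Nrf1 cKO 2 (6.36%, 4.52% and 3.74% of features), 1 without Dnmt3C KO 1 or Nrf1 cKO 3 (4.83% and 7.87%) and 2 without dKO 1 (5.71%). It was 4 without WT 2 (median -0.78, 6.22%) or Nrf1 cKO 1 (6.97%) and 5 without Dnmt3C KO 2 (3.99%). A test of any difference among the 4 genotypes called none of the 8 in edgeR (percent called 0, smallest adjusted p of the 8 0.878) or in DESeq2, with none under 0.05 (6.06% of features). Without dKO 3 there were 3 of 8 under 0.05 (5.77% of features), and without any other library there was none.

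**Figure D3:**
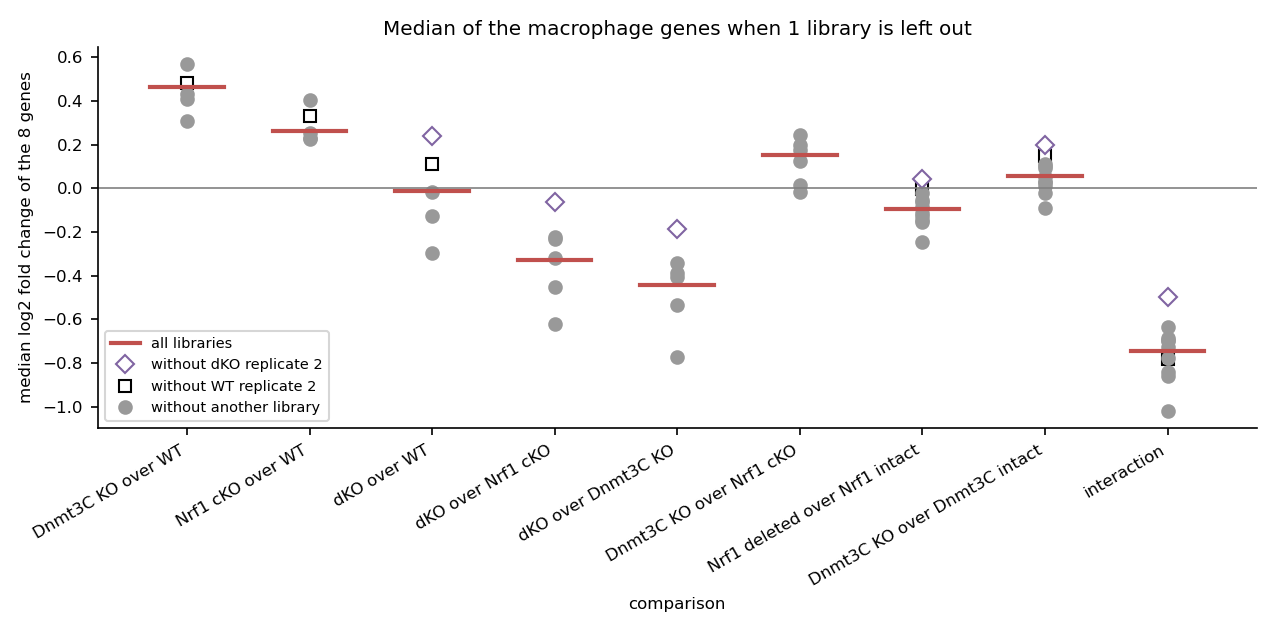
Median log2 fold change of the 8 macrophage genes in 9 comparisons, with all libraries (red line) and after dropping any 1 library (grey points, the open square without WT 2 and the open diamond without dKO 2). The medians of the comparisons that include dKO move upward without dKO 2, and that of the interaction stays below 0 in every case.

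The 8 genes varied together across libraries. Pearson r between the log2 CPM of 2 members over the 11 libraries was 0.56 to 0.99 over the 28 pairs, with a median of 0.82, and 0.33 to 0.98 with a median of 0.68 without dKO 2. These values are descriptions, since the genes share each library's composition and depth. The C1q genes were closest, C1qa with C1qc at 0.99, C1qa with C1qb at 0.96 and C1qb with C1qc at 0.96. Without dKO 2 these were 0.98, 0.91 and 0.90. Csf1r followed Adgre1 at 0.91 and Mrc1 at 0.89, and Cd68 with Mrc1 was the loosest pair at 0.56.

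**Figure D4:**
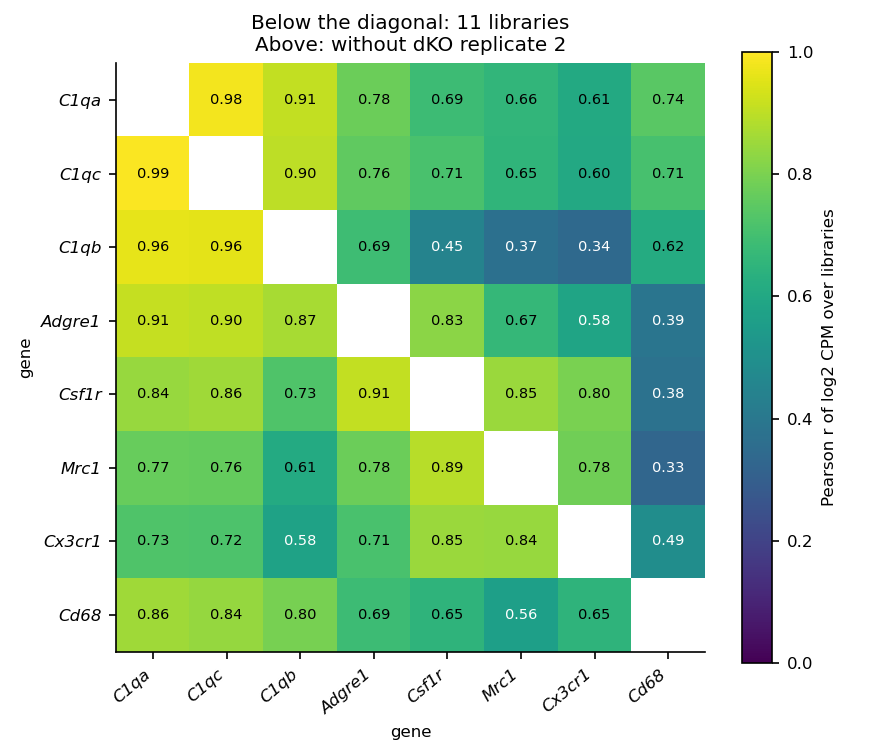
Pearson r of log2 CPM between the 8 macrophage genes, over all 11 libraries below the diagonal and without dKO 2 above it. The block of C1qa, C1qb and C1qc has r from 0.96 to 0.99 below the diagonal and from 0.90 to 0.98 above it.

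Ratios of counts within a library gave the same picture at finer grain. C1qc to C1qa ranged from 0.871 in dKO 2 to 1.15 in Nrf1 cKO 3, with an SD of 0.11 on the log2 scale against a counting error of 0.07. C1qb to C1qa ranged from 0.871 in WT 1 to 1.15 in WT 2, an SD of 0.13 against 0.07. The ratio of Mrc1 to Csf1r was 0.878, 0.875 and 1.02 in Nrf1 cKO, 1.13 and 1.06 in WT, 1.04, 1.101 and 1.31 in Dnmt3C KO, and 1.30, 1.24 and 1.17 in dKO. All Nrf1 cKO libraries were thus below the other 8, a pattern that was picked out after the values were seen and has no test.

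By variance, 12.9% (Mrc1) to 53.6% (Cd68) of the spread of a member's log2 CPM lay between genotypes, beside a median of 28.0% over all genes. Within genotypes the SD of log2 CPM was 0.26 to 0.48 for the members, beside a median of 0.20 over the 4025 genes in the members' range of CPM.

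The growth signals of macrophages were measured in the same libraries. Csf1, the main ligand of CSF1R, ranged from 17.2 to 30.2 CPM and Il34, its other ligand, from 0.154 to 1.12 CPM. Cx3cl1, the ligand of CX3CR1, ranged from 52.9 to 96.0 CPM and was highest in dKO 2, the library in which Cx3cr1 and every other member were lowest. Its Pearson r with the mean standardised log2 CPM of the members was -0.60 over the 11 libraries and 0.01 without dKO 2. Cxcl12, a stromal chemokine, ranged from 215.3 to 482.6 CPM, and Csf2ra, a receptor chain for GM-CSF, from 25.6 to 34.7 CPM. Of the 10 genes of this list 9 were tested in Dnmt3C KO over WT, with a median log2 fold change of 0.00, none called in edgeR and 2 with an unadjusted p under 0.05, 1 higher and 1 lower, where 5.41% of all features reached it.

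Of 12 transcription factors of the macrophage lineage all were tested and none was called in any comparison in edgeR, with 1 in Dnmt3C KO over WT and 2 in Nrf1 cKO over WT at an unadjusted p under 0.05, which 5.41% and 5.75% of all features reached. Id3 at 38.3 to 87.6 CPM, Maf at 50.5 to 85.0 CPM and Cebpa at 33.8 to 71.1 CPM had the highest counts, and Spi1, which encodes PU.1, was at 1.74 to 3.97 CPM. The lysosome list gave a median of 0.12 in Dnmt3C KO over WT, with 13 of 14 genes above 0. It was led by Ctsl, a cathepsin also made by Sertoli cells, at 1075 to 1969 CPM. Psap, the precursor of the saposins, was at 519.7 to 763.0 CPM and Ctsb, another cathepsin, at 327.5 to 465.2 CPM. Complement genes were led by Serping1, the C1 inhibitor, at 96.2 to 259.6 CPM, C1s1 at 97.8 to 204.5 CPM and C1ra at 91.9 to 139.2 CPM, which encode the C1 proteases that act with C1q. Their median in Dnmt3C KO over WT was -0.12, with 4 of 18 above 0, where C1qa, C1qb and C1qc were all above 0.

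The remaining macrophage genes did not all follow the members. Of 25 such genes 23 were tested in Dnmt3C KO over WT, with a median log2 fold change of 0.02, 13 above 0 and none called in edgeR. At an unadjusted p under 0.05 there were 2, Pf4 at 1.09 and Trem2 at 0.71, where 5.41% of all features reached it. In dKO the list went with the members: 17 of 22 genes were lower than in Dnmt3C KO (median -0.31). Against Nrf1 cKO 18 of 22 were lower (-0.14). In the interaction the list's median was -0.14 with 14 of 24 below 0, against -0.75 and 8 of 8 for the members. The members were not alone in this: 11 of 12 endothelial markers (median -0.63) and 5 of 6 mast cell genes (-0.71) were below 0. So were 13 of 14 lysosome genes (-0.26), whereas 7 of 7 MHC class II genes and 17 of 20 germ cell markers were above 0. The highest of the other macrophage genes, Axl at 453.7 to 694.7 CPM and Gas6 at 266.9 to 406.9 CPM, are a receptor and its ligand. Testicular somatic cells also make both. Lyz2, the lysozyme of myeloid cells, was at 23.0 to 89.1 CPM and lowest in dKO 2. The mean log2 CPM of this list correlated with that of the members at r = 0.86 over the 11 libraries (0.76 without dKO 2), that of the pan leukocyte genes at 0.56 (0.12) and that of the MHC class II genes at 0.06 (-0.21). Over the 11 libraries r was also 0.61 for peritubular and stromal markers, 0.54 for endothelial and 0.47 for Leydig cell markers, but without dKO 2 it was 0.42, -0.10 and 0.21. The growth signals had 0.57 (0.51 without dKO 2). Across all lists, 206 genes other than the members were tested and none was called in edgeR in any of the 10 comparisons, the smallest adjusted p being 0.0528 (Dazl, a germ cell gene, in Dnmt3C KO over Nrf1 cKO).

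MHC class II genes, which mark the peritubular macrophages as well as dendritic and B cells, went with 1 WT library. The list summed to 236.4 CPM in WT 2 and to 15.7 to 31.6 CPM in the other 10 libraries. H2-Aa was at 87.3 CPM, H2-Eb1 at 57.8 CPM and Cd74 at 37.2 CPM in WT 2, against medians of 4.74, 5.01 and 4.87 CPM over all 11. Monocyte genes (56.8 against 11.8 to 21.5 CPM) and red blood cell genes (2160 against 262 to 1776 CPM) were also highest there, while the 8 macrophage genes summed to 145.1 CPM in WT 2 and 135.7 CPM in WT 1. In Dnmt3C KO over WT the median of the 7 MHC class II genes was -2.23 with all libraries and 0.15 without WT 2. None was called in edgeR either way, and 6 of 7 were lower at an unadjusted p under 0.05 with all libraries (2.86% of all features were lower in this way) and 0 of 7 without WT 2 (11.2% of features in either direction). The part of these genes in the WT values of the macrophage genes was not tested, and without WT 2 the median of the 8 macrophage genes over WT was 0.48 for Dnmt3C KO and 0.33 for Nrf1 cKO, with none called in edgeR.

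Germ cell markers, which reflect the cells in which Nrf1 was deleted, varied widely between these testes. The list of 20 summed to 538.6 and 684.1 CPM in WT, 539.1 to 953.9 in Dnmt3C KO, 216.0 to 399.6 in Nrf1 cKO and 270.1 to 568.8 in dKO. None was called in edgeR, while at an unadjusted p under 0.05 there were 15 of 20 lower in Nrf1 cKO than in WT, where 4.22% of all features were lower at that level. At the same level 8 of 20 were lower in dKO than in Dnmt3C KO (4.08% of features), 4 lower in dKO than in WT (1.19%) and 2 higher in dKO than in Nrf1 cKO (1.94%). The part of these levels in the macrophage values was not tested.

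**Figure D5:**
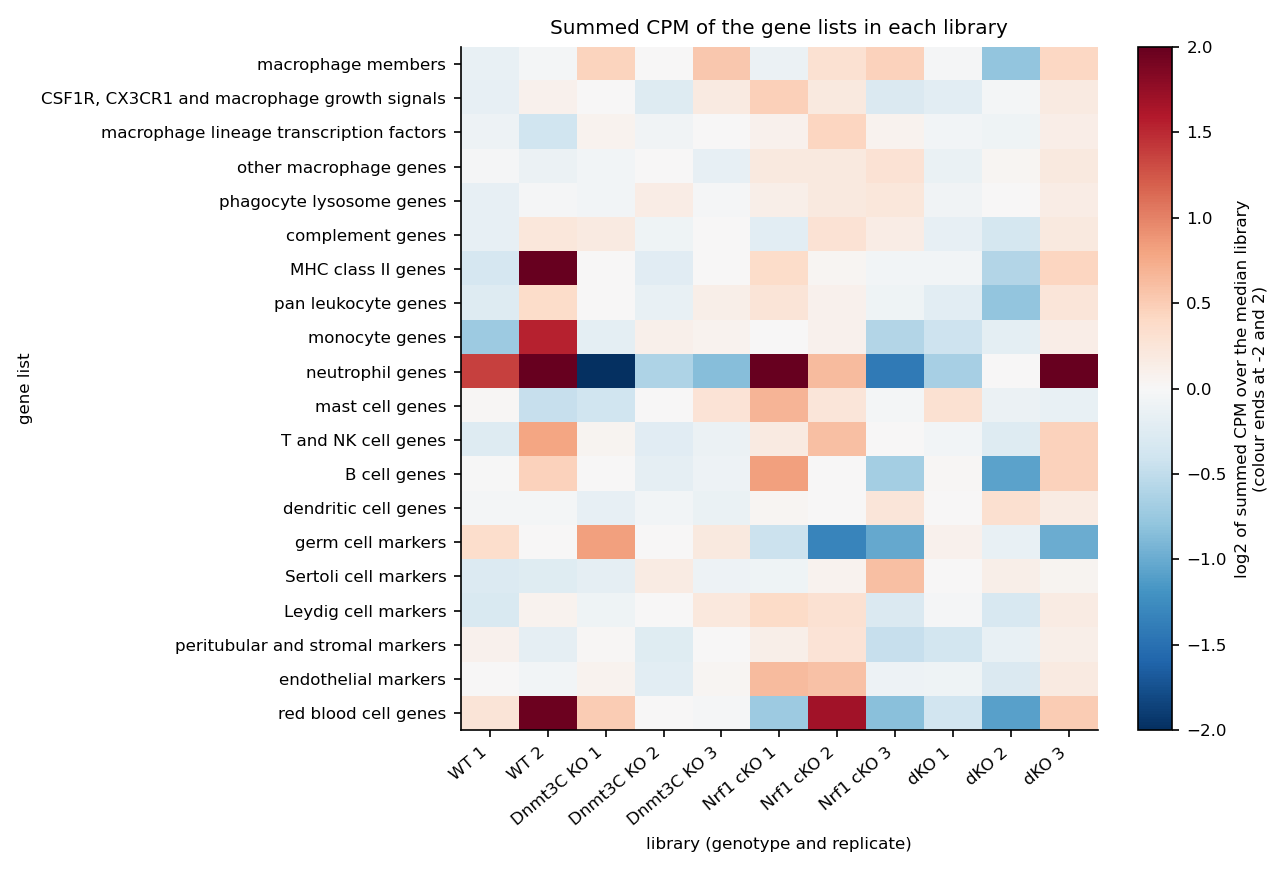
Summed CPM of the macrophage genes and 19 other gene lists in each library, as log2 of the ratio to the median library (rows are lists, columns are libraries, the colour scale ends at -2 and 2). The macrophage genes are lowest in dKO 2, and the MHC class II and monocyte lists are highest in WT 2.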

How the data were processed

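RNA of whole testes from 11 samples was sequenced as stranded poly-A libraries. Per the labels and methods, reads were aligned by the authors with STAR 2.7.3a to GRCm38 and assigned to genes and transposable element subfamilies with TEtranscripts, and libraries with an RNA integrity number below 8 had been left out. The deposited values used here are the raw counts of 6 pairwise tables, joined into 34276 features (33188 genes) by 11 libraries. Counts of a library did not differ between tables. Totals were 26063590 to 39365841 counts. The tables' own fold change and p-value columns, made by the authors with DESeq2 1.44.0, and a TPM table were not used.

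The 8 members and the other lists were chosen with earlier results of these data known. Each pair of genotypes was fitted with edgeR 4.0.16 in R 4.3.3 (filterByExpr, TMM, quasi-likelihood F test), and a fit of all 11 libraries gave the Nrf1, Dnmt3C, interaction and any-difference tests. Benjamini-Hochberg adjustment ran over all genes and subfamilies tested, with a threshold of 0.01, and p-values measure only the spread between these libraries. Likeness between genes was Pearson r of log2 CPM with a prior count of 1. Levels per kilobase used exon unions of the GENCODE annotation of GRCm38. Named were all members, every other list gene past the threshold (none), the 3 with the highest mean CPM of each list described, and the 10 genes most like the members. Csf1, Il34, Spi1, Pf4, Trem2, Ms4a7, Tyrobp, Lhcgr and C2 were named outside this rule with their values seen. On simulated counts with a log2 change of 2, edgeR recovered 94.5% of 200 changed genes with 3 libraries against 3 (20767 features tested), 94% with 3 against 2 (21218) and 73.5% for the interaction (21993). No member had a fitted change of that size, the largest being -0.98 for C1qc in the interaction, and all simulated features shared 1 dispersion. These rates therefore do not give the power for changes as small as those of the members. Alternatives were DESeq2 1.42.0, its size factors in edgeR, no filter, a threshold of 0.05, genes only, a replicate block, the joint fit for pairs and leaving out each library. A likelihood ratio test of DESeq2 for any difference was added after seeing the data. Python 3.11.15, pandas 2.3.3, scipy 1.17.1 and matplotlib 3.10.9 were used.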

Additional observations from a re-analysis of the deposited data

Results flagged for a closer look

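Dixon's test was run on the 8 macrophage genes and 20 summed lists within groups of 5 or 6 libraries that share an Nrf1 or Dnmt3C state, 112 tests in all, and 11 values lay farther out than its 95% limit. Chance puts about 1 in 20 groups past that limit. No macrophage gene was among them.

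Among the 5 libraries with intact Nrf1, WT 2 was far above the others in 5 lists. The MHC class II genes summed to 236.4 CPM, the monocyte genes to 56.8 CPM, the T and NK cell genes to 15.2 CPM, the B cell genes to 7.82 CPM and the red blood cell genes to 2160 CPM. Among the 5 libraries with intact Dnmt3C the MHC class II value of 236.4 CPM and the monocyte value of 56.8 CPM of WT 2 stood out again.

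Elsewhere the Sertoli cell markers summed to 10285 CPM in Nrf1 cKO 3 and the red blood cell genes to 1776 CPM in Nrf1 cKO 2, both high among the 6 libraries with deleted Nrf1. The neutrophil genes summed to 20.5 CPM in dKO 3, high among the 6 Dnmt3C KO libraries, and the dendritic cell genes to 94.1 CPM in Nrf1 cKO 3, high among the 5 with intact Dnmt3C.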

How the results depend on the processing

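None of the 8 genes was called in any of the 10 comparisons under any alternative run, and the smallest adjusted p over all of them was 0.283 (edgeR with a replicate block, dKO over Dnmt3C KO). Of the 72 fold changes of members, 0 moved across the threshold, 29 changed sign when 1 library was left out and 8 did so with the replicate block. The cause was not tested. Replicate numbers showed no pairing of the libraries: log2 deviations of libraries with the same number correlated at -0.233 to 0.221, and 3 libraries correlated best with their own number. The paper states that controls were littermates where possible. This check cannot decide whether litters were shared, since deviations of the 2 WT libraries from their mean are mirror images. Numbers follow the sample titles, and in the count tables the libraries titled replicate 3 of Dnmt3C KO and of dKO carry other numbers, so the block may join unrelated libraries. With the replicate block the members at an unadjusted p under 0.05 (edgeR) were 1 in Dnmt3C KO over WT (7.20% of all features), 6 in dKO over Dnmt3C KO (10.9%) and 1 in the interaction (4.99%), where they were 3, 1 and 2 without it (5.41%, 7.18% and 5.55%), and with no filter there were 4 in the interaction (4.65%). With the replicate block the log2 fold change was -0.03 for Mrc1 in Nrf1 cKO over WT; -0.30 for Csf1r, -0.24 for Cd68 and -0.09 for Mrc1 in dKO over WT; -0.02 for Csf1r and -0.11 for Mrc1 in Nrf1 deleted over intact; and -0.01 for C1qa and -0.07 for C1qc in Dnmt3C KO over intact.

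Over the fits that leave out 1 library, the log2 fold changes that changed sign ranged as follows. In Nrf1 cKO over WT they ran from -0.15 to 0.60 for C1qb and -0.04 to 0.48 for Mrc1. In dKO over WT they ran from -0.27 to 0.35 for Csf1r, -0.60 to 0.10 for Adgre1, -0.24 to 0.20 for Cd68, -0.32 to 0.22 for C1qa, -0.56 to 0.22 for C1qb, -0.37 to 0.26 for C1qc and -0.05 to 0.50 for Mrc1. In dKO over Nrf1 cKO they ran from -0.30 to 0.27 for Mrc1 and -0.40 to 0.10 for Cx3cr1, and in dKO over Dnmt3C KO from -0.51 to 0.03 for Mrc1 and -0.45 to 0.06 for Cx3cr1. In Dnmt3C KO over Nrf1 cKO they ran from -0.25 to 0.10 for Csf1r, -0.13 to 0.20 for Adgre1, -0.02 to 0.33 for C1qb, -0.05 to 0.26 for C1qc and -0.21 to 0.29 for Cx3cr1. In Nrf1 deleted over intact they ran from -0.08 to 0.22 for Csf1r, -0.31 to 0.03 for Adgre1, -0.26 to 0.01 for C1qa, -0.36 to 0.03 for C1qb, -0.25 to 0.06 for C1qc and -0.13 to 0.14 for Mrc1. In Dnmt3C KO over intact they ran from -0.18 to 0.12 for Csf1r, -0.29 to 0.06 for Adgre1, -0.06 to 0.21 for C1qa, -0.20 to 0.19 for C1qb and -0.12 to 0.19 for C1qc.

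Over all features, edgeR called 0 in Dnmt3C KO over WT, DESeq2 24 and edgeR without a filter 111, and for Nrf1 cKO over WT the counts were 0, 25 and 69. DESeq2 called 4 in dKO over WT, 11 in dKO over Nrf1 cKO, 21 in dKO over Dnmt3C KO, 212 in Dnmt3C KO over Nrf1 cKO, 55 for Nrf1 deleted over intact, 29 for Dnmt3C KO over intact, 0 for the interaction and 127 for any difference, where edgeR called 1 for Nrf1 deleted over intact and 0 in the others. No macrophage gene was among them. With 2 or 3 libraries a genotype, intervals of a member's fold change were at least 0.34 wide on either side.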

Other observations

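The genes whose levels followed the macrophage genes most closely were found by Pearson r with the mean of their standardised log2 CPM over the 11 libraries, as a description with no test. They were Cav1 (r = 0.95, and 0.89 without dKO 2) and Cav2 (0.91, 0.82), which encode caveolins of endothelial and stromal cells, Cyth4 (0.94, 0.89) and Lrrc25 (0.93, 0.82), which are expressed in leukocytes, Tmem140 (0.92, 0.81), Serpina1e (0.91, 0.85), Dmac2l (0.91, 0.81), Tspan32os (0.91, 0.78), Postn, a matrix protein of stromal cells (0.90, 0.77), and Acyp1 (0.90, 0.81), each with r without dKO 2 second. All 10 were lowest in dKO 2, and none was in a list. Serpina1e did not exceed 0.708 CPM in any library. With the genotype means taken off, the closest were Gm14305, Gm20300, Gm37891 and Ivd (each 0.98), Nckap1l, a regulator of actin in blood cells (0.97), Tmem140 (0.97), and Gm45871, Gm15675, Prex2 and Slc22a5 (each 0.96). With genotype means kept, r of these 10 was lower, from 0.33 for Gm37891 to 0.92 for Tmem140, and without dKO 2 it was 0.09 for Gm37891, 0.12 for Prex2, 0.17 for Gm20300 and at most 0.83 (Slc22a5).

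Among the listed genes, the closest to the macrophage genes over the 11 libraries were Ms4a7, a macrophage surface protein (r = 0.88, and 0.75 without dKO 2), Lhcgr, the luteinising hormone receptor of Leydig cells (0.86, 0.84), Laptm5 (0.83, 0.65), Tyrobp (0.83, 0.54), and C2 of the classical complement pathway (0.82, 0.57). These were picked after their values were seen.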
